A study of Mus musculus with 4 samples.

Results

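The cells described here are N3 neutrophils, 1 of 6 neutrophil subsets (N1a, N1b, N2, N3, N4 and N5) that the authors named cell by cell in a deposited table. They were taken by that name alone, which gave 220 of 964 annotated neutrophils and of 4440 CD45+ cells in all. The cells came from MC38 tumours, a mouse colon carcinoma line grown in the flank for 7 days. All hosts carried the IL-12p40-IRES-EYFP transgene, a fluorescent reporter of the interleukin-12 p40 chain. Mice of the first group received 5 mg/kg of agonist anti-CD40 antibody into the peritoneum (2 tumours, called anti-CD40 tumours 1 and 2 by the authors' animal numbers), and the other mouse was left untreated (1 tumour). Tissue was taken 2 days after treatment and sorted for CD45, a surface protein of blood-derived cells. Neither the labels nor the files used here give the age or sex of the mice or the clone of the antibody, and the untreated state rests on 1 animal. RNA was counted by inDrops, in which single cells are captured in droplets and every molecule gets a unique molecular identifier (UMI).

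Neutrophils are short-lived granulocytes that build their granule proteins while they mature in the bone marrow and lose most of those transcripts afterwards. In tissue they can make chemokines such as CXCL2 and CXCL3, which recruit further neutrophils through the receptor CXCR2, and the inflammatory cytokine interleukin-1 beta. Many of these genes belong to the rapid programme driven by NF-kB, a family of transcription factors activated by microbial and cytokine receptors.

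Anti-CD40 tumour 1 gave 131 N3 cells with 106820 UMIs, anti-CD40 tumour 2 gave 74 cells with 56588 UMIs, and the untreated tumour gave 15 cells with 6902 UMIs. The median N3 cell held 772, 666.5 and 465 UMIs in these tumours, so that the untreated values are the shallowest and the least precise. No cell barcode was shared between libraries. Levels below are UMIs of a gene per 10000 UMIs summed over the N3 cells of a tumour, and intervals are 95% exact intervals that cover counting error only. Every comparison of N3 with another subset is a description without a test, since the subsets were drawn from the expression of the same genes.

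The sequences upstream of Cxcl2 and Cxcl3 are shown because Cxcl2 is a marker of N3, Cxcl3 is a leading gene of N3 (below), and both lie near each other in the chemokine cluster of chromosome 5. The RefSeq starts of GRCm38.p6 were used, with the 250 bases before the start read on the + strand, at chr5:90903649-90903898 for Cxcl2 and at chr5:90785851-90786100 for Cxcl3. Capitals mark matches to the NF-kB consensus, searched on both strands.
Cxcl2: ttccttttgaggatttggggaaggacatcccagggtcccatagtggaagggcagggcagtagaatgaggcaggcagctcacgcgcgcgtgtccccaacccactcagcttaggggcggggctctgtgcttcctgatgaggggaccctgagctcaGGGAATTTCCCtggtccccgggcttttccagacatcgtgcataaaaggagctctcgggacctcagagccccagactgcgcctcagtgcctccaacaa
Cxcl3: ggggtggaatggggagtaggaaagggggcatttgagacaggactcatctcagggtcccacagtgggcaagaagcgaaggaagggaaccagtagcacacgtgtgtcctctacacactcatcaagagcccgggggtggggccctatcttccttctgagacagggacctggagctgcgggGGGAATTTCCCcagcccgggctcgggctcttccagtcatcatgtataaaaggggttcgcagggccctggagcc
Both windows held the same run of capitals, made of 2 matches that overlap in all but 1 base at each end, beginning 97 bases before the start of Cxcl2 and 73 bases before that of Cxcl3. The window of the same length before Il1b, the other marker of N3, held 0 matches. Among 27025 promoters of the same length, 7.01% held at least 1 match. Of the 20 leading genes of N3 named below, 15 had an entry in the promoter table, and 3 of them (Cxcl3, Jaml and Rgcc) held a match. The AP-1 motif TGANTCA was found in 1 of the 15 (Cd80) and in 6.87% of all promoters, and the cyclic AMP response element TGACGTCA in 0 of the 15 and in 1.62% of all promoters. A match is a stretch of letters and no evidence of binding, and no binding was measured.

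The 2 marker genes of N3 were found in nearly every N3 cell. Cxcl2, which encodes a chemokine for neutrophils, stood at 397 in anti-CD40 tumour 1 (385 to 409), 525 in anti-CD40 tumour 2 (506 to 544) and 355 in the untreated tumour (312 to 402). Il1b, which encodes interleukin-1 beta, stood at 196, 293 and 271 in the same tumours. Both transcripts were found together in 128 of 131, 73 of 74 and 15 of 15 N3 cells. Such wide detection was not particular to N3. In anti-CD40 tumour 1, Cxcl2 was found in 99.0% of N2, 100% of N1b and 99.0% of N5 cells. Il1b was found there in 99.5% of N2, 99.3% of N1b and 78.1% of N5 cells. In T cells, which should lack them, Cxcl2 was found in 6.25% of 48 cells, 5.19% of 135 and 2.67% of 150, and Il1b in 1, 4 and 15 of those cells. The median T cell held 778, 651 and 475.5 UMIs, close to the depth of N3 cells.

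Neither marker alone set N3 apart from its neighbours. For Cxcl2, N5 cells stood at 452, 488 and 313 in anti-CD40 tumours 1 and 2 and the untreated tumour, so that N3 was below N5 in tumour 1 and above it in the other tumours. N2 cells held 209, 296 and 178 Cxcl2 UMIs per 10000, and N1a cells only 101 and 115 in the treated tumours. For Il1b the order was different: N2 stood at 204, 250 and 251, near N3, whereas N5 stood at 76.3, 103 and 62.9. N1b was also near N3 for Il1b in anti-CD40 tumour 1, where the ratio of N3 to N1b was 1.04 (0.986 to 1.10). That ratio was 1.99 in anti-CD40 tumour 2 and 1.00 in the untreated tumour, which held 4 N1b cells. The sum of the markers was highest in N3 in both treated tumours (593 and 818, against 529 and 591 in N5 and 413 and 546 in N2). As both genes are markers of N3, this sum repeats the markers and is no separate evidence.

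Signs of other cells were few. No UMI of the T cell, NK cell, basophil and mast cell, tumour epithelial or red cell and platelet markers was found in N3. The 10 macrophage markers summed to 36, 16 and 3 UMIs in anti-CD40 tumours 1 and 2 and the untreated tumour, with 7, 5 and 8 of the 10 at 0, and the 5 monocyte markers to 22, 8 and 1 UMIs. B cell, eosinophil, dendritic cell and stromal markers had 0 to 8 UMIs per list and tumour. Of the 220 cells, 4 carried at least 3 UMIs of a second cell type's markers, all 4 in anti-CD40 tumour 1.

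Genes that were highest in N3 in both treated tumours numbered 81 of the 760 with at least 30 N3 UMIs, or 10.7%. The 20 with the largest ratio of the mean N3 level to the next subset ran from Pitpnc1 (3.54-fold) to Atp11b (1.72-fold). They included secreted and surface proteins (Cxcl3, Thbs1, Cd80, Entpd1, Jaml, Antxr2, Sirpb1c), regulators of transcription (Nfkbiz, Crem, Nr4a3, Chd2), the cholesterol exporter Abca1 and Phlda1, a protein with a pleckstrin homology-like domain. The others were Tes, Rgcc, Chka, Pomp and Rhoh.

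Cxcl3, a chemokine for neutrophils like Cxcl2, had the most N3 UMIs (2205) of these 20 genes. Its level was 153 in anti-CD40 tumour 1, 89.4 in anti-CD40 tumour 2 and 95.6 in the untreated tumour for N3. N5, the next subset, stood at 68.0, 23.5 and 19.3, and N2 at 21.8, 14.6 and 9.45. N3 lay above N5 and N2 in all 3 tumours.

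The N3 cells did not share Cxcl3 evenly. It was found in 84.7%, 60.8% and 53.3% of N3 cells of anti-CD40 tumours 1 and 2 and the untreated tumour, against 58.3%, 34.8% and 42.9% of N5 cells and at most 2.08% of T cells in any tumour. With each cell thinned to 300 UMIs the N3 shares were 78.3%, 55.2% and 63.6%, after 11, 7 and 4 shallower cells were left out. The median N3 cell held 8, 2 and 1 Cxcl3 UMIs, and the highest held 87, 42 and 20. Within anti-CD40 tumour 2 the libraries ranged from 55.3 to 155, which is wider than the range of 133 to 181 in anti-CD40 tumour 1.

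Thbs1, which encodes the matrix glycoprotein thrombospondin-1, stood at 125 and 108 in N3 of the anti-CD40 tumours, against 53.6 in untreated N3. In N5 it stood at 72.6, 61.0 and 41.9 across those tumours, and in N2 at 57.5, 54.3 and 12.1. Entpd1, the ectonucleotidase CD39 that breaks down extracellular ATP, stood at 8.61, 10.6 and 8.69 in N3, and at 3.29, 4.58 and 8.06 in N5. Cd80, a ligand of CD28 and CTLA-4 on T cells, stood at 4.77, 3.53 and 5.80 in N3, and at 1.76, 1.21 and 5.4 in N2. In the untreated tumour N2 stood at 9.45 for Entpd1, above N3, and both subsets had 4 Cd80 UMIs, so that neither gene was set apart there.

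Nfkbiz, an inducible regulator of NF-kB target genes, stood at 13.2, 31.1 and 15.9 in N3 and at 9.30, 14.9 and 8.10 in N2. Nr4a3, an inducible nuclear receptor, rested on few molecules, with 8, 22 and 2 UMIs in N3. Pitpnc1, a phosphatidylinositol transfer protein, had the largest ratio but only 15, 15 and 0 UMIs. Of the 20 genes, 13 were also higher in N3 than in N2 in the untreated tumour and 13 were higher than in N5, against 397 and 368 of all 760 genes. Several of these rest on very few untreated UMIs. Chd2, Cd80 and Rhoh had equal UMIs in N3 and N2 (1, 4 and 2 in each) and counted as higher only through the smaller N3 total. Crem and Pomp had 1 N3 UMI each.

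**Figure D1:**
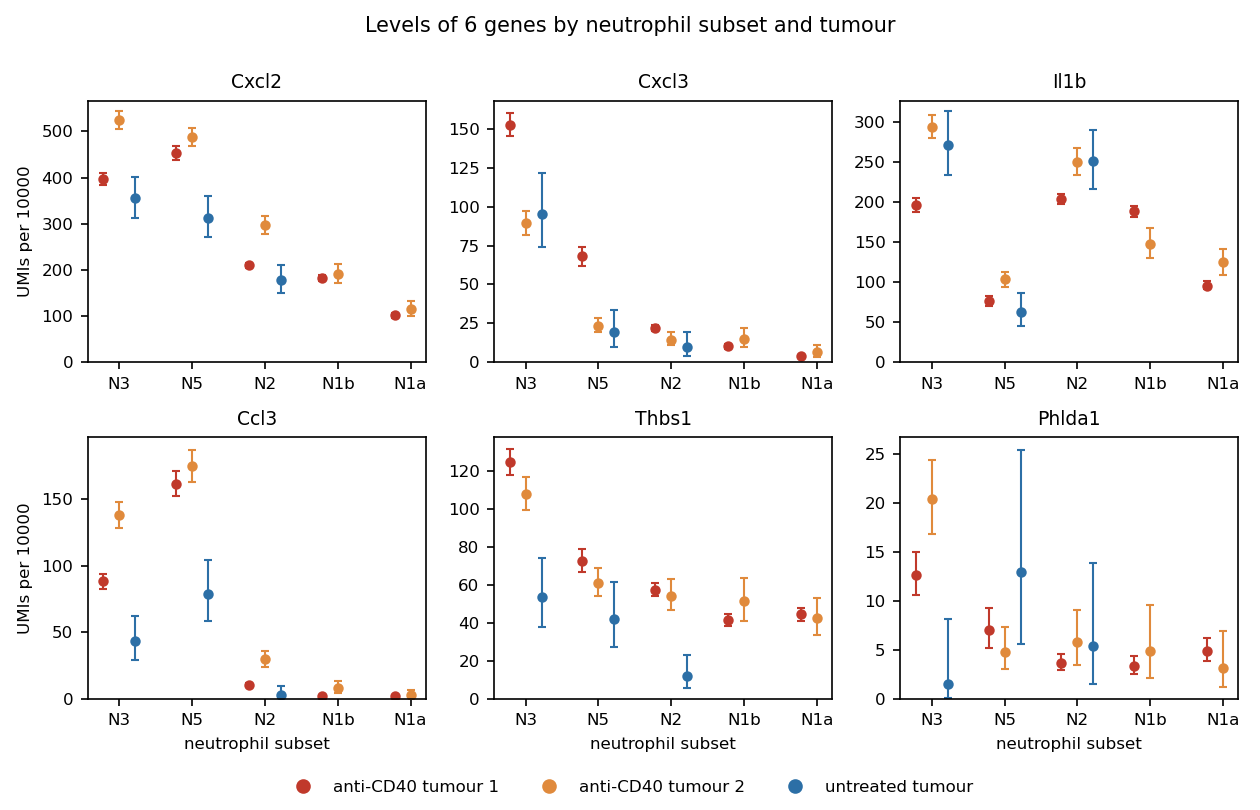
Levels of 6 genes in UMIs per 10000 for N3, N5, N2, N1b and N1a (left to right), with a point for each tumour and bars for 95% exact Poisson intervals; untreated N1b (4 cells) is not drawn and untreated N1a had 0 cells. Cxcl3 is highest in N3 in every tumour, Cxcl2 is high in N3 and N5, Il1b is high in N3 and N2, and Phlda1 in untreated N3 is a single UMI.

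Genes that were lowest in N3 in both treated tumours numbered 72 of 2595. Prok2, which encodes the secreted peptide prokineticin-2, led them, with 5, 0 and 0 UMIs in N3 of anti-CD40 tumours 1 and 2 and the untreated tumour and a mean level 7.86-fold lower than in N2, the next subset up. Its mean level over the treated tumours was 0.234 in N3, against 2.62 in N5, 1.84 in N2, 4.52 in N1b and 7.94 in N1a. Psap, the precursor of the lysosomal saposins, rested on the most N3 UMIs of the first 10 (55), at 3.74 and 1.77 in N3 of the anti-CD40 tumours, against 11.1 and 3.70 in N5 and 12.8 and 5.46 in N2. In the untreated tumour it was higher in N3 (7.24) than in N5 (4.84). The others of the first 10 (Ttc7, Atp5k, Tprgl, Creb1, Rilpl2, Hnrnpul2, Map2k2 and Pef1) had 0 to 6 N3 UMIs over all tumours. Creb1, a transcription factor, had 0.

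Over 2882 genes N3 lay closest to N5: the median absolute log2 difference was 0.46 and 0.50 in anti-CD40 tumours 1 and 2, against 0.49 and 0.68 to N2 and 0.60 and 0.86 to N1a. These subsets share libraries, and N1a and N1b of anti-CD40 tumour 2 hold only 16 and 14 cells. Against N5, N3 was higher in 935 of the 2882 genes in both treated tumours and lower in 742. Against N2 it was higher in 780 and lower in 1210.

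The 5 genes with the largest ratio of N3 to N5 over the treated tumours were Crispld2, Lcp2, Pitpnc1, Fpr1 and Coro1a. Fpr1, a receptor for bacterial formyl peptides, stood at 8.89 and 4.24 in N3 of the anti-CD40 tumours, against 0.686 and 1.31 in N5, a ratio of 6.59, but it had 0 UMIs in untreated N3. Coro1a, an actin-binding protein of leukocytes, stood at 8.80 and 4.42 in N3 and at 0.549 and 1.53 in N5, a ratio of 6.37. Crispld2, a secreted protein, had the largest ratio (9.09), followed by Lcp2, an adaptor of immunoreceptor signalling (7.72), and Pitpnc1 (7.08). In the other direction Hspa1b, an inducible heat shock protein, stood at 0.187 and 5.48 in N3 and at 7.00 and 35.3 in N5. Prok2, Aph1c, Ccnf and Plpbp were also lower in N3, on 4 to 7 N3 UMIs each.

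What separated N3 from N2 included Spp1, which encodes the secreted matrix protein osteopontin, at 16.0, 39.9 and 21.7 in N3 of anti-CD40 tumours 1 and 2 and the untreated tumour, against 1.23, 2.73 and 1.35 in N2. All N3 values were above all N2 values, but the 15 untreated N3 UMIs all lay in pool 1, with 0 in pool 2. The ratio over the treated tumours was 14.1, and N5 stood at 40.2, 36.6 and 33.9. Inhba, the subunit of activin A, had 48 UMIs in N3 and 5 in N2. Hspa1a, a heat shock protein, had 53 N3 UMIs, of which 44 lay in anti-CD40 tumour 2 and 29 of these in 1 cell. Slc38a1 and Zfand2a were the other 2 genes highest against N2. Ltb, the membrane subunit of lymphotoxin, had 3 UMIs in N3 and 81 in N2, and Arhgef3, Lair1, Stk10 and Rap1gap2 were likewise at 2 to 4 UMIs in N3, against 44 to 52 in N2.

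The summed level of CXC chemokines was highest in N3, but not that of each member. The 9 CXC chemokines summed to 553, 616 and 471 in N3 of anti-CD40 tumours 1 and 2 and the untreated tumour, against 522, 516 and 332 in N5 and 244, 317 and 188 in N2. N3 ranked first of the 5 subsets in both treated tumours. The sum was carried by Cxcl3 and by Cxcl2, itself a marker of N3. Of the 4 members with enough UMIs, 1 (Cxcl3) was highest in N3 in both treated tumours, beside 137 of 2882 genes overall. Against N5, 1 was higher in N3 and 1 lower in both, and against N2, 3 were higher and 1 lower. Over all 2882 genes these counts were 935 and 742 against N5, and 780 and 1210 against N2. Cxcl1, a further CXCR2 ligand, was at 2.81, 0.353 and 0 in N3, from 30, 2 and 0 UMIs.

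CC chemokines, which attract monocytes and lymphocytes, were second in N3 after N5 in the treated tumours, and higher in N3 than in N5 in the untreated tumour. They summed to 268, 291 and 167 in N3, against 323, 352 and 145 in N5 and 54.4, 77.0 and 21.6 in N2. Ccl3 stood at 88.1, 138 and 43.5 in N3, against 162, 175 and 79.0 in N5 and 10.4, 29.4 and 2.70 in N2. Ccl4 stood at 120, 120 and 97.1 in N3, against 126, 139 and 38.7 in N5. N3 was thus above N2 in both genes in every tumour, and above N5 only for Ccl4 in the untreated tumour.

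The interleukin-1 and inflammasome list was mostly Il1b, a marker of N3, so that its sum largely repeats the marker. It summed to 275, 403 and 342 in N3, against 170, 188 and 164 in N5 and 279, 334 and 327 in N2, and 9 of its 11 members with enough UMIs were higher in N3 than in N5 in both treated tumours. Against N2, 5 were higher and 2 lower. Over all 2882 genes, 935 were higher in N3 than in N5, and 780 were higher and 1210 lower than in N2. Of the 11, 3 were highest in N3, beside 137 of 2882 genes overall. Nlrp3, the sensor of an inflammasome that matures interleukin-1 beta, stood at 12.9, 28.5 and 8.69 in N3, against 10.01, 14.8 and 9.67 in N5 and 7.26, 9.70 and 2.70 in N2. Il1rn, the antagonist of the interleukin-1 receptor, was lower in N3 (33.9, 25.8 and 39.1) than in N5 (62.6, 44.7 and 77.4). NF-kB targets summed to 362, 544 and 409 in N3, against 376, 456 and 342 in N5 and 259, 390 and 354 in N2. The members did not all follow the sum. Of 23 with enough UMIs, 8 were higher and 12 lower in N3 than in N2 in both treated tumours, beside 780 and 1210 of 2882 genes overall. Against N5, 13 were higher and 4 lower, beside 935 and 742 overall. Ptgs2, the inducible enzyme of prostaglandin synthesis, stood at 37.9, 68.2 and 44.9 in N3, against 29.6, 36.8 and 6.45 in N5.

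Genes of hypoxia and glycolysis lay between those of N2 and N5. Of the 23 measured well enough, 22 were higher in N3 than in N2 in both treated tumours and 15 were lower than in N5, beside 780 and 742 of 2882 genes overall. Their sum was 207, 200 and 191 in N3 of anti-CD40 tumours 1 and 2 and the untreated tumour, against 377, 388 and 301 in N5 and 69.9, 71.2 and 81.0 in N2. Hilpda, a lipid droplet protein induced by hypoxia, stood at 50.4, 70.3 and 20.3 in N3 and at 131, 163 and 87.1 in N5. Ldha, which makes lactate, stood at 19.9, 16.3 and 13.04 in N3, against 36.4, 32.0 and 33.9 in N5 and 4.08, 5.76 and 5.4 in N2. The same intermediate place held for the iron store Fth1, at 319, 301 and 349 in N3, 447, 497 and 529 in N5 and 144, 125 and 98.5 in N2.

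Genes of the maturing neutrophil were lower in N3 than in N2, and above N5 in the treated tumours only. The granule and matrix list summed to 150, 63.4 and 29.0 in N3 of anti-CD40 tumours 1 and 2 and the untreated tumour, against 34.4, 35.9 and 37.1 in N5, 301, 239 and 54.0 in N2 and 920 and 884 in N1a of the treated tumours. Of its 15 members, 11 were lower in N3 than in N2 and 10 higher than in N5 in both treated tumours. Over all 2882 genes, 1210 were lower than in N2 and 935 higher than in N5. Retnlg, a resistin-like secreted protein of neutrophils, stood at 50.1, 9.37 and 10.1 in N3 and at 217 and 255 in N1a of the treated tumours. The NADPH oxidase, which makes the oxidative burst, was lower in N3 than in N2 in all 6 subunits, beside 1210 of 2882 genes overall.

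Interferon-stimulated and antigen presentation genes were lower in N3 than in N2. The type I interferon list summed to 241, 232 and 230 in N3, against 248, 188 and 116 in N5 and 375, 397 and 425 in N2. In both treated tumours 28 of its 29 members were lower in N3 than in N2, beside 1210 of 2882 genes overall. All 10 major histocompatibility complex (MHC) class I genes measured were lower as well, with B2m, the shared light chain, at 57.6, 49.0 and 50.7 in N3 and at 85.8, 84.6 and 95.8 in N2. Cd274, which encodes the checkpoint ligand PD-L1, stood at 18.2, 17.5 and 27.5 in N3, against 31.0, 35.3 and 9.67 in N5 and 6.60, 14.6 and 13.5 in N2. The list of a tumour neutrophil state marked by high SiglecF summed to 39.6, 36.2 and 46.4 in N3, against 69.4, 74.1 and 70.9 in N5. Surface receptors of neutrophils summed to 353 and 357 in N3 of the anti-CD40 tumours, against 240 and 187 in N5 and 335 and 354 in N2. Of 26, 20 were higher in N3 than in N5 in both of these tumours and 0 lower, whereas 9 were higher and 11 lower than in N2. Over all 2882 genes, 935 were higher and 742 lower than in N5, and 780 higher and 1210 lower than in N2. Of the same 26, 6 were highest in N3, beside 137 of 2882 genes overall.

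**Figure D2:**
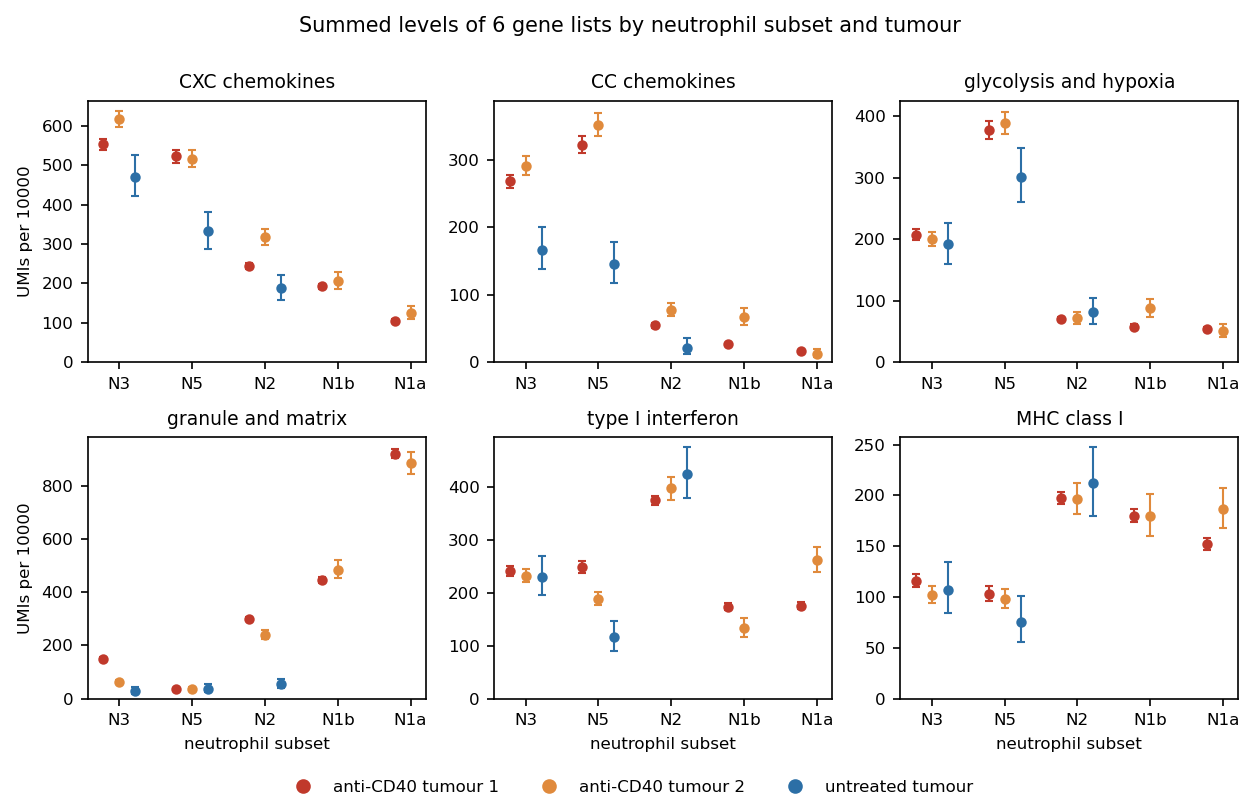
Summed levels of 6 gene lists in UMIs per 10000 for N3, N5, N2, N1b and N1a (left to right), with a point for each tumour and bars for 95% exact Poisson intervals; untreated N1b and N1a are not drawn. N3 is first for CXC chemokines, lies between N5 and N2 for glycolysis and hypoxia, and is below N2 for granule, type I interferon and MHC class I genes.

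N3 made up 18.7% of the neutrophils of anti-CD40 tumour 1 (15.9% to 21.8%), 34.4% of those of anti-CD40 tumour 2 (28.1% to 41.2%) and 30.6% of those of the untreated tumour (18.3% to 45.4%). The intervals of the 2 treated tumours did not overlap each other, and the untreated interval overlapped both. By library the share ran from 16.0% to 41.5% in the treated tumours and from 18.2% to 50.0% in the untreated one. Within pool 1, which held both conditions, the share was 21.3% in anti-CD40 tumour 1 and 23.1% in the untreated tumour, and within pool 2 it was 16.9% and 39.1%. Set over all CD45+ cells, N3 were 10.7%, 4.08% and 1.07% of anti-CD40 tumours 1 and 2 and the untreated tumour, so that anti-CD40 tumour 1 was lowest by the first measure and highest by the second. No test was made, because 1 animal against 2 cannot give a small exact p.

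**Figure D3:**
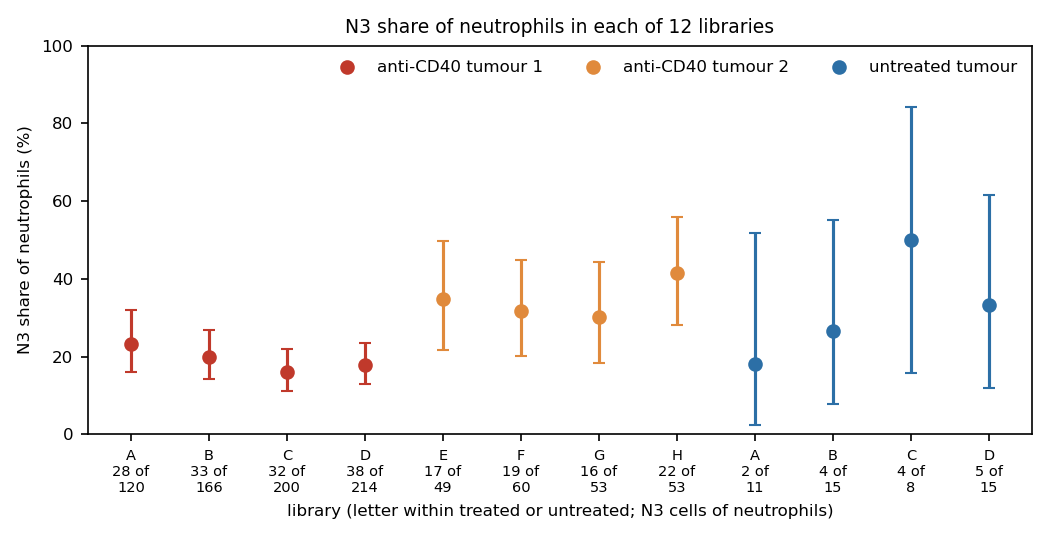
N3 cells as a percentage of neutrophils in the 8 libraries of the anti-CD40 tumours and the 4 of the untreated tumour, with 95% exact Clopper-Pearson intervals; the counts of N3 cells and of neutrophils stand under each library. The intervals of the untreated libraries, with 2 to 5 N3 cells each, cover the shares of all treated libraries.

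Anti-CD40 was then set against no treatment within N3. Of 1016 genes tested, 3 passed an adjusted p of 0.05 (0.295%): Lcn2 and Phlda1 were higher (0.197%) and Tnfaip2 was lower (0.0984%). The p-values are from edgeR's quasi-likelihood test on UMIs summed per tumour, with Benjamini-Hochberg adjustment. Their 1 residual degree of freedom comes from the anti-CD40 tumours, and the lone untreated tumour was assumed to vary like them. The spread of a gene was largely taken from the trend over all genes, so the p-values do not measure spread between untreated animals. Before adjustment 117 genes had a p under 0.05, and DESeq2 called 0.

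Lcn2, the granule protein lipocalin-2 that binds bacterial siderophores, had 321 UMIs in N3 of anti-CD40 tumour 1, 70 in anti-CD40 tumour 2 and 0 in the untreated tumour, at levels of 30.1, 12.4 and 0. Against a limit of 3 counts over the untreated N3 cells, it was at least 6.91-fold higher in anti-CD40 tumour 1 and at least 2.85-fold higher in anti-CD40 tumour 2 (edgeR adjusted p = 0.000477). With 0 untreated UMIs, Lcn2 passed the filter on low counts through the anti-CD40 tumours only, so that its direction was fixed in advance. It was found in 66 of 131 and 29 of 74 treated N3 cells, against 0 of 15 untreated cells, and in each treated library. In T cells of these tumours it was found in 2.08%, 0.741% and 0% of cells. In N2 Lcn2 stood at 59.99, 45.5 and 1.35 in anti-CD40 tumours 1 and 2 and the untreated tumour, and in N5 at 5.90, 7.41 and 6.45. The effect in N3 did not pass the test of a difference from N2 and N5 (edgeR adjusted p = 0.698).

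Phlda1, also a leading gene of N3, had 135 and 115 UMIs in N3 of the anti-CD40 tumours and 1 in the untreated tumour, at levels of 12.6, 20.3 and 1.45. The pooled treated level was 10.6 times the untreated one, with a counting interval of 1.88 to 419 (edgeR adjusted p = 0.0316). N5 stood at 7.00, 4.79 and 12.9 and N2 at 3.65, 5.76 and 5.4, so that Phlda1 was higher in N3 than in both in the anti-CD40 tumours and lower in the untreated one. T cells held Phlda1 too, in 14.6%, 9.63% and 8.67% of cells, against 44.3%, 56.8% and 6.67% of N3 cells.

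Tnfaip2, an NF-kB target induced by tumour necrosis factor, stood at 3.18 and 7.25 in N3 of the anti-CD40 tumours, against 30.4 in untreated N3, from 34, 41 and 21 UMIs. The log2 fold change was -2.15 ± 0.55 (SE, edgeR adjusted p = 0.0316), and the untreated molecules came from 7 of 15 cells in all 4 libraries. Within pool 1 the level was 3.73 in anti-CD40 tumour 1 and 15.9 in the untreated tumour, and within pool 2 it was 2.68 and 42.7. N2 cells showed 13.2, 21.2 and 39.1 in anti-CD40 tumours 1 and 2 and the untreated tumour.

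Each of these calls was lost under several settings. Lcn2 and Tnfaip2, but not Phlda1, passed with plain library sizes, and no gene passed when the 4 cells with second-type markers were left out, when either pool 3 or pool 4 was left out, when cells were thinned to 300 UMIs, with DESeq2's size factors, or in a joint fit with N2 and N5. Lcn2 alone passed after the shallowest 10% of cells were dropped. Without pool 1 there were 4 calls and without pool 2 there were 5, with Lcn2 among both. The scaling moved the median log2 fold change of all genes to 0.38 with TMM, against -0.02 with plain library sizes. Mitochondrial transcripts stood at 26.4 and 50.4 in N3 of the anti-CD40 tumours and 73.9 in untreated N3, and their part in these differences was not tested.

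The genes next in order did not pass. With 0 untreated UMIs, the direction of Mmp8, Antxr2 and Rhob was fixed in advance, as for Lcn2. Mmp8, the neutrophil collagenase, had 127, 27 and 0 UMIs in N3 of anti-CD40 tumours 1 and 2 and the untreated tumour (edgeR adjusted p = 0.0981), Antxr2, an anthrax toxin receptor, had 74, 50 and 0 (0.136), and Rhob, a small GTPase, had 97, 31 and 0 (0.144). In the other direction, Fgl2 had 19, 14 and 11 UMIs (0.144), Tap2, a subunit of the peptide transporter for MHC class I, had 7, 5 and 7 (0.176), and Hcls1 had 44, 18 and 11 (0.394). Cxcl10, a chemokine for T cells, had 8, 7 and 7 UMIs (0.144), and all 7 of the untreated ones lay in 1 cell.

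**Figure D4:**
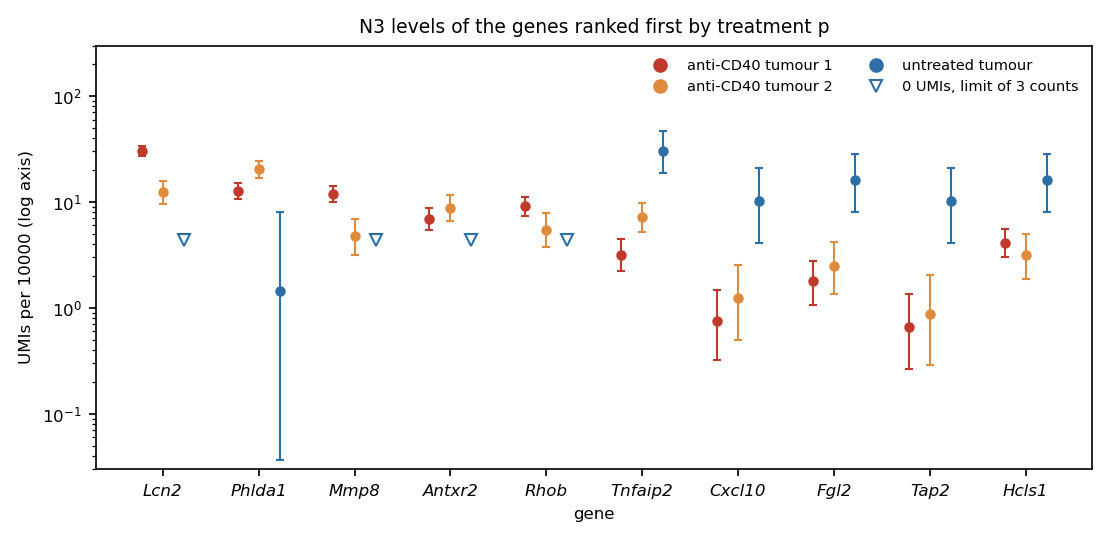
Levels in N3 of the 5 genes with the smallest p in each direction, in UMIs per 10000 on a log axis, with a point for each tumour and bars for 95% exact Poisson intervals; open triangles mark the limit of 3 counts where 0 UMIs were found. Lcn2, Phlda1 and Tnfaip2 passed the threshold, and the other 7 genes did not.

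The markers of N3 did not pass either. The log2 fold change between anti-CD40 and untreated N3 was 0.80 ± 0.80 for Cxcl2 (SE, edgeR adjusted p = 0.684), 0.28 ± 0.72 for Il1b (0.8999) and 0.75 ± 0.67 for Cxcl3 (0.681). These values rest on TMM scaling, and for Il1b the direction turned without it: the pooled treated level was 0.848 times the untreated one (counting interval 0.732 to 0.987). Thbs1, at 125 and 108 in the anti-CD40 tumours and 53.6 in the untreated tumour, had 1.53 ± 0.69 (0.394).

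By list, the granule and matrix genes held 1 higher call (Lcn2) among 11 tested and the NF-kB targets 1 lower call (Tnfaip2) among 18, and no other list held one. Of those 11 granule genes, 5 had 0 untreated UMIs, against 169 of all 1016 genes. Such genes passed the filter on low counts through the anti-CD40 tumours only, so that their fitted direction was fixed in advance. With these at the limit of 3 counts, the median log2 ratio of the mean anti-CD40 level to the untreated level was 0.94 over the 11, against -0.53 over all 1016 genes. Since 5 of the 11 entered through the anti-CD40 tumours only, this contrast cannot show a rise of granule genes. Interferon gamma genes had a median of -1.12 over 10, of which 2 were positive, and their sum was 44.4 and 59.2 in N3 of the anti-CD40 tumours, against 109 in untreated N3. Glycolysis and hypoxia genes had a median of -0.19 over 22, type I interferon genes -0.07 over 25 and NF-kB targets -0.0014 over 18. The fitted log2 fold changes, which use TMM scaling and have a median of 0.38 over all genes, gave other signs for these 3 lists. Their medians were 0.40 for glycolysis and hypoxia (16 positive), 0.45 for type I interferon (16 positive) and 0.67 for NF-kB targets (13 positive), and -0.71 for interferon gamma genes.

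A further test asked whether the response of N3 differed from the mean response of N2 and N5. It called 0 of 1709 genes (0.0%) by edgeR's quasi-likelihood test, with 122 at an unadjusted p under 0.05. G0s2, an inhibitor of triglyceride breakdown, had the smallest p, with a log2 difference of -2.27 ± 0.37 (SE, adjusted p = 0.0605). It stood at 96.0, 91.5 and 158 in N3 of anti-CD40 tumours 1 and 2 and the untreated tumour, whereas N5 stood at 41.2, 49.7 and 14.5 and N2 at 103, 91.5 and 47.2. Acod1, the enzyme that makes itaconate, came next with -2.35 ± 0.45 (adjusted p = 0.153), at 33.1, 31.5 and 55.1 in N3, 19.1, 17.6 and 4.84 in N5 and 41.5, 44.6 and 22.9 in N2. For both genes the untreated level was above both treated levels in N3 and below both in N2 and N5. In the direction of higher values in N3, Phlda1 (3.94 ± 1.13, adjusted p = 0.508), Resf1 (2.94 ± 0.96, adjusted p = 0.677) and Jdp2, with 0 UMIs in untreated N3 (adjusted p = 0.677), were first.

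N3 cells of the anti-CD40 tumours also differed from each other. These tumours lay in different pools, so that animal and pool cannot be told apart, and genes near the minimum of UMIs carry much counting error. Of 736 genes with at least 30 UMIs over both, 93 were at least 2-fold higher in anti-CD40 tumour 1 and 49 at least 2-fold higher in anti-CD40 tumour 2. Among the 5 genes with the largest ratio of tumour 1 to tumour 2, Ifitm6, an interferon-induced membrane protein, had 107 UMIs in tumour 1 and 9 in tumour 2, a ratio of 6.30. Cybb, the catalytic subunit of the NADPH oxidase, had 31 and 1, with a ratio of 16.4 and a counting interval of 2.74 to 669, and 13 of the 31 lay in 1 cell. Npepps, Cxcl1 and Taldo1 completed the first 5. Retnlg, of the granule list, lay outside them and was chosen after its values were seen, with 535 UMIs in tumour 1 and 53 in tumour 2, a ratio of 5.35.

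The 2 genes with the largest ratio of tumour 2 to tumour 1 were heat shock genes, which rested on few cells. Hspa1b had 2 UMIs in tumour 1 and 31 in tumour 2, and Hspa1a had 6 and 44, in 5 of 74 cells of tumour 2 for each gene. Sirpb1c, a signal regulatory protein, had 7 and 24 UMIs, a ratio of tumour 2 to tumour 1 of 6.47, and Nr4a3 had 8 and 22, a ratio of 5.19, in 18 and 14 cells of tumour 2. H1f2, a linker histone, completed the first 5.

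**Figure D5:**
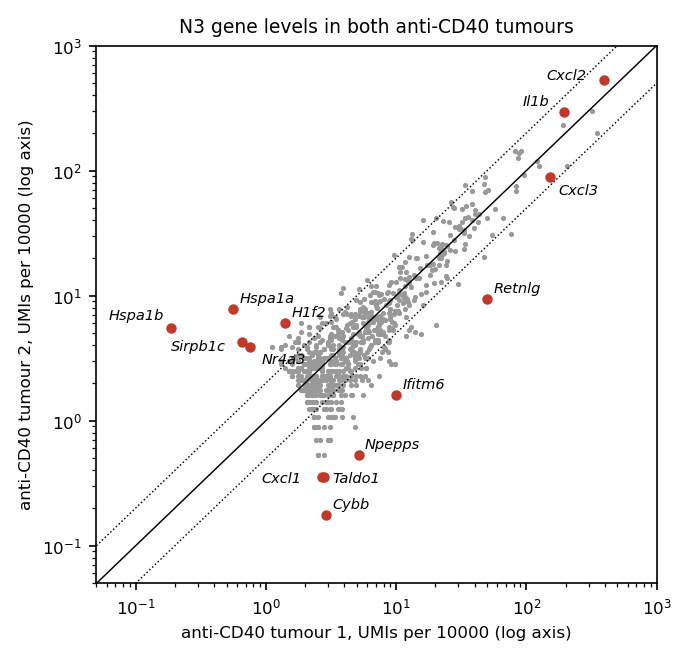
Levels of 736 genes in N3 of anti-CD40 tumour 1 (horizontal) and anti-CD40 tumour 2 (vertical), in UMIs per 10000 on log axes, with a solid line of equal level and dotted lines at 2-fold. Cxcl2, Il1b and Cxcl3 lie within the dotted lines, while Retnlg and Ifitm6 lie below them and the heat shock genes Hspa1a and Hspa1b above.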

How the data were processed

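The deposited files hold UMI counts per gene and cell barcode for 4 pools of inDrops libraries (12 libraries, 22631 genes), with the authors' table that gives each cell its library, condition, animal and subset. Per the submitters' processing notes, bcl2fastq and STAR with the GRCm38 build were used; the versions, cell filters and naming rules were not given in the sources used here. No doublet caller was run.

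UMIs of N3, N1a, N1b, N2 and N5 cells were summed per tumour. Levels are UMIs per 10000, with 95% exact Poisson intervals, and shares carry 95% exact Clopper-Pearson intervals. A fold against 0 UMIs uses a limit of 3 counts over the group. Leading genes had at least 30 N3 UMIs and were higher in N3 than in N1a, N1b, N2 and N5 in both treated tumours, and the first 20 by ratio of mean levels are named. Low genes were chosen likewise from those with at least 30 UMIs over the other subsets, and the first 10 are named. Against N2 and N5 singly, the 5 genes with the largest ratio in each direction are named. For treatment, the called genes and, where fewer than 5 passed in a direction, the 5 with the smallest p are named. Treatment was tested with edgeR 4.0.16 (R 4.3.3; TMM, filterByExpr, robust quasi-likelihood fit), with an adjusted p threshold of 0.05, and DESeq2 1.42.0 was an alternative. The fit was tested on simulated data. Cells were also thinned to 300 UMIs, and cells with at least 3 UMIs of a second type's markers were left out in turn. Libraries of anti-CD40 tumour 1 and the untreated tumour shared pools 1 and 2, and anti-CD40 tumour 2 made up pools 3 and 4, so that pool and tumour 2 cannot be told apart. The members and gene lists were chosen with earlier results of these data known.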

Additional observations from a re-analysis of the deposited data

How the results depend on the processing

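The untreated tumour is 1 animal with 15 N3 cells, which limits every treatment value. Of 3 genes called for treatment, 0 passed with DESeq2 size factors, with the DESeq2 Wald test, without cells carrying second-type markers, in thinned cells or in the joint fit with N2 and N5, and 1 (Lcn2) without the shallowest 10% of cells. Plain library sizes gave 2 calls (Lcn2 and Tnfaip2) and no filter on low counts 2 (Cxcl9 and Lcn2). Leaving out 1 pool gave 0 to 5 calls: 4 without pool 1, 5 without pool 2, and 0 without pool 3 or pool 4. For the difference in response between N3 and the mean of N2 and N5, with 0 calls, no filter gave 4, leaving out second-type cells 3, leaving out the shallowest 10% of cells 3, and leaving out 1 pool 0 to 4 (3 without pool 1, 4 without pool 4). G0s2 and Cxcl10 were among the calls in all 5 of these settings. The cause was not tested.

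Genes highest and lowest in N3 numbered 81 and 72. They numbered 34 and 20 in thinned cells, 159 and 432 with the treated tumours pooled, and 42 and 15 with the untreated tumour added. Of the 20 named leading genes, 9 stayed in thinned cells and 11 with the untreated tumour added; of the 10 low genes, 2 and 0 did. The N3 share in anti-CD40 tumour 1 was 30.9% of neutrophils other than N1a and N1b, 10.7% of CD45+ cells and 23.3% in library A. It was 4.08% of CD45+ cells and 41.5% in library H for anti-CD40 tumour 2, and 1.07% of CD45+ cells, 18.2% in library A and 50.0% in library C for the untreated tumour. The order of the tumours thus turned with the denominator, with anti-CD40 tumour 1 lowest among neutrophils and highest among CD45+ cells. Plain library sizes moved the median gene's treatment log2 fold change to -0.02, against 0.38 under TMM. The 10 genes drawn for treatment kept their direction, but they had been picked by smallest p in these same data. Lcn2, Mmp8, Antxr2 and Rhob had 0 untreated UMIs, so that no scaling could turn them. No paired analysis was possible because the untreated group holds 1 animal; anti-CD40 tumour 1 and the untreated tumour shared pools 1 and 2, and within-pool values of the shares and of Tnfaip2 stand in the report without a test.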
